A study of Mus musculus with 6 samples.

Results

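The genes described are the Fos, Jun and Egr transcription factors, the 10 genes Fos, Fosb, Fosl1, Fosl2, Jun, Junb, Jund, Egr1, Egr2 and Egr3 of the 24411 genes listed in the count tables. They were chosen by family membership, but with earlier results of these data known. All 10 were among the 10133 genes tested, those with enough counts for the edgeR filter. RNA-seq libraries of primary microglia (PM) were compared in 2 groups, both exposed to GSK-J4, an inhibitor of the jumonji demethylases of histone H3 lysine 27. The GSK-J4 group comprised 3 libraries of PM given GSK-J4 at 10 μM for 4 h without LPS, and the LPS + GSK-J4 group comprised 3 libraries of PM given GSK-J4 at 10 μM and LPS at 10 ng/ml for 4 h. LPS is a bacterial cell wall component that activates TLR4. The PM were shaken off mixed glial cultures made, per the study's methods, from pooled brains of neonatal ICR mice. The labels do not give the order in which GSK-J4 and LPS were added. Untreated PM and PM given LPS alone were not analysed here. Each difference is thus between PM with and without LPS in the presence of GSK-J4, and the effect of GSK-J4 itself was not measured.

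The products of the Fos and Jun genes are leucine zipper proteins that join as dimers to form AP-1. Fos proteins need a Jun partner, whereas Jun proteins also pair with each other. The Egr proteins bind GC-rich sites through zinc fingers and do not dimerise with AP-1 proteins, but many members of both groups are immediate-early genes, transcribed within minutes of a signal without new protein synthesis. In microglia and macrophages, TLR4 engages MAP kinases, which act on these genes through the serum response factor with its ternary complex factors and through CREB, and AP-1 then takes part in the induction of cytokines and matrix proteases.

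The libraries held 2597505 to 3472716 fragments assigned to genes. Values are given as counts and as CPM, the counts normalised to the library size multiplied by edgeR's TMM factor, and 3 counts, taken as the floor, equalled 0.673 to 1.24 CPM depending on the library. Rn45s, the precursor of ribosomal RNA, held 25.6% ± 5.88 of a library's counts without LPS and 47.1% ± 1.15 with it (SD, n = 3). The 2-sided exact permutation test gave p = 0.1, the smallest that 3 against 3 allows. The comparison was repeated without Rn45s, Mir6236 and Lars2, as given below. The part of Rn45s in the results was not tested otherwise. TMM factors spanned 1.05 to 1.31 without LPS and 0.821 to 0.832 with LPS. With total counts in place of TMM, the median log2-fold change of all genes tested moved from -0.00064 to -0.57, so every difference between groups is relative to the scale chosen. The 8 microglial markers examined, among them Itgam and Csf1r, were all detected, with summed levels of 2631 to 2725 CPM without LPS and 2058 to 2120 CPM with LPS. Summed markers of astrocytes (8 genes) were at 53.9 to 59.4 against 131 to 159 CPM, and those of the oligodendrocyte lineage (8 genes) at 187 to 215 against 361 to 414 CPM. Those of fibroblasts (5 genes) were at 71.8 to 262 against 132 to 393 CPM, those of neurons (5 genes) at 10.9 to 11.2 against 26.8 to 30.1 CPM and those of endothelium (4 genes, Cldn5 at 0 in every library) at 13.9 to 17.7 against 21.5 to 57.0 CPM. Of these 30 markers of other cell types, Gfap, Stmn2 and Cdh5 met the criteria for up-regulation, and the part of other cells in the results was not tested. In such bulk samples, fewer cells of a type and less RNA per cell cannot be told apart.

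Of the 10 members, 7 were up-regulated in LPS + GSK-J4 over GSK-J4, namely Egr1, Fos, Fosl1, Egr2, Fosb, Egr3 and Junb in descending order of log2-fold change. The criterion was an adjusted p of at most 0.01 in the edgeR quasi-likelihood test together with a log2-fold change no smaller than 1.5, which 2.95% of all genes tested met in this direction. No member was down-regulated, against 0.809% of all genes tested. At an unadjusted p under 0.05, 9 members were higher and 0 lower, where 19.3% of all genes were higher and 15.5% lower, and DESeq2 likewise called 7 up-regulated and 0 down-regulated. Jund was higher at an adjusted p below 0.01 but under the fold threshold, and Jun and Fosl2 did not pass the test. At any fold change, 8.42% of all genes were higher and 5.46% lower at that adjusted p. The median log2-fold change was 1.78 over the members and -0.00064 over all genes. In 8 members all 3 LPS + GSK-J4 libraries lay above all 3 GSK-J4 libraries, as they did for 19.8% of all genes tested. With total counts in place of TMM, Fos (2.07) and Egr1 (3.42) stayed up-regulated, whereas Junb (1.14), Egr3 (1.14), Fosb (1.28), Egr2 (1.29) and Fosl1 (1.30) fell short of the fold threshold, the same direction being kept by all 7. That alternative was chosen after the data were seen.

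**Figure D1:**
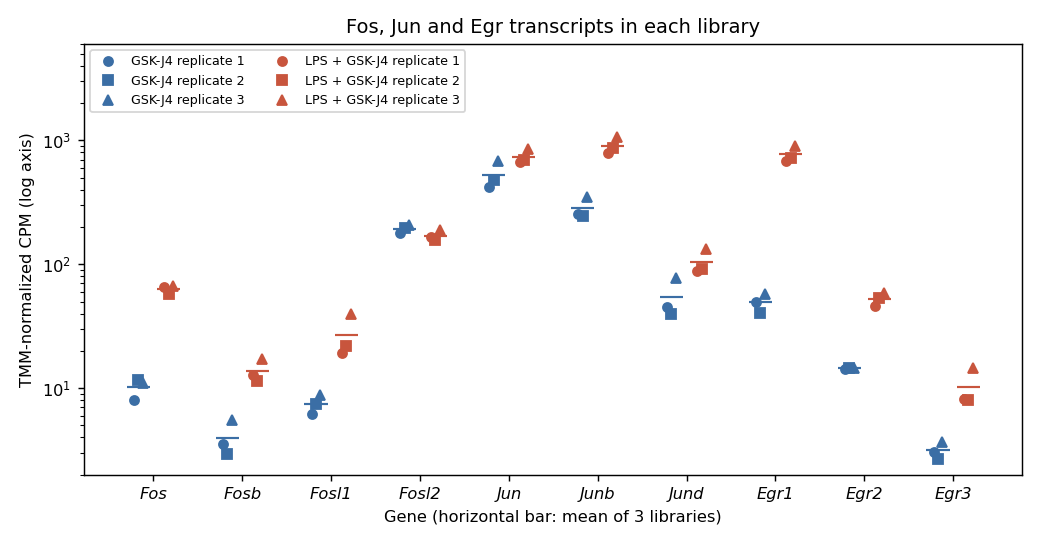
Level of each of the 10 genes in each library, in TMM-scaled CPM on a log axis, with GSK-J4 and LPS + GSK-J4 libraries side by side, each point 1 library and each bar the group mean. The groups stand apart in 8 genes and overlap in Fosl2 and Jun.

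Egr1, a zinc finger activator and classical immediate-early gene, had the largest change of the 10 genes. It lies on mm10 chromosome 18 (34859823 to 34864984, plus strand). Egr1 had 210, 179 and 158 counts in the 3 GSK-J4 libraries and 1733, 1904 and 2193 in the 3 LPS + GSK-J4 libraries, or 49.5, 40.2 and 57.9 against 676, 727 and 906 CPM. The lowest LPS + GSK-J4 library thus lay far above the highest GSK-J4 library. The mean rose from 49.2 ± 8.88 to 769 ± 121 CPM (SD, n = 3), which is 3.98 on the log2 scale (standard error 0.16, 95% interval 3.64 to 4.31, edgeR adjusted p = 2.60e-11). This placed Egr1 at rank 27 of the 10133 genes in descending order of log2-fold change.

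Egr2, known for its part in Schwann cell myelination and in myeloid cells, lies on chromosome 10 (67535475 to 67542188, plus strand). Its levels were 14.2, 14.6 and 14.7 CPM in GSK-J4 and 46.1, 53.4 and 58.6 CPM in LPS + GSK-J4, from 60, 65, 40, 118, 140 and 142 counts. The GSK-J4 libraries were nearly equal, and no library of either group reached the range of the other. Egr2 rose by a log2-fold change of 1.86 (standard error 0.17, 95% interval 1.5 to 2.23, edgeR adjusted p = 8.15e-07). Egr3, a near relative of Egr2 that is itself a target of NFAT in lymphocytes, lies on chromosome 14 (70077203 to 70082614, plus strand) and was the lowest of the 10 genes. It had 13, 12 and 10 counts in GSK-J4 and 21, 21 and 35 in LPS + GSK-J4, or 3.07, 2.69 and 3.67 against 8.20, 8.01 and 14.5 CPM. The groups did not overlap, but replicate 3 of LPS + GSK-J4 stood well above the other libraries of its group. Egr3 rose by a log2-fold change of 1.71 (standard error 0.34, 95% interval 0.99 to 2.43, edgeR adjusted p = 0.00152), and by 1.38, under the fold threshold, without LPS + GSK-J4 replicate 3.

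Fos, the founding member of its family and a short-lived partner of Jun, lies on chromosome 12 (85473890 to 85477273, plus strand, 4 exons). It had 34, 52 and 30 counts in GSK-J4 and 167, 152 and 163 in LPS + GSK-J4, or 8.02, 11.7 and 11.0 against 65.2, 58.0 and 67.3 CPM. Each LPS + GSK-J4 library stood clear of every GSK-J4 library, and the spread within each group was small beside that distance. Fos rose from 10.2 ± 1.94 to 63.5 ± 4.88 CPM (SD, n = 3), or by 2.64 in log2-fold change (standard error 0.19, 95% interval 2.24 to 3.03, edgeR adjusted p = 3.12e-08), at rank 77 of 10133.

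Fosb, which like Fos carries a transactivation domain, lies on chromosome 7 (19302696 to 19310051, minus strand). It was at 3.54, 2.92 and 5.50 CPM in GSK-J4 and at 12.9, 11.4 and 17.3 CPM in LPS + GSK-J4, from 15, 13, 15, 33, 30 and 42 counts. The groups were apart, with replicate 3 the highest of each. Fosb rose by a log2-fold change of 1.85 (standard error 0.31, 95% interval 1.19 to 2.5, edgeR adjusted p = 0.000362). Fosl1, which encodes Fra-1, a Fos protein without that domain, lies on chromosome 19 (5447547 to 5455946, plus strand). It had 26, 33 and 24 counts in GSK-J4 and 49, 57 and 97 in LPS + GSK-J4, or 6.13, 7.41 and 8.80 against 19.1, 21.8 and 40.1 CPM. Again the groups did not overlap, and LPS + GSK-J4 replicate 3 stood well above the other libraries of its group. Fosl1 rose by a log2-fold change of 1.87 (standard error 0.29, 95% interval 1.26 to 2.47, edgeR adjusted p = 0.000165), and by 1.48, under the fold threshold, without LPS + GSK-J4 replicate 3. Fosl1 overlaps Ccdc85b on the opposite strand, and in counts that ignore strand, where fragments shared by both genes are dropped, 24.1% as many fragments were left on it and it was not tested.

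Fosl2, which encodes Fra-2, lies on chromosome 5 (32135801 to 32157842, plus strand) and was by far the most highly counted of the Fos family in GSK-J4. Its levels were 179, 196 and 207 CPM in GSK-J4 and 166, 158 and 188 CPM in LPS + GSK-J4, from 758, 871, 564, 425, 414 and 456 counts. The groups overlapped. The log2-fold change of Fosl2 was -0.18 (standard error 0.12, 95% interval -0.44 to 0.07, edgeR adjusted p = 0.308), an interval that does not reach the fold threshold in either direction. With total counts it was -0.74 (adjusted p = 0.000439), which passed the p criterion but not the fold threshold.

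Junb, a weaker activator than Jun and in some promoters its antagonist, lies on chromosome 8 (84974484 to 84978718, minus strand, 1 exon). It had 1085, 1094 and 948 counts in GSK-J4 and 2034, 2260 and 2590 in LPS + GSK-J4, or 256, 246 and 348 against 794, 862 and 1070 CPM. Every LPS + GSK-J4 library was above every GSK-J4 library. Junb rose from 283 ± 56.1 to 909 ± 144 CPM (SD, n = 3), or by 1.69 in log2-fold change (standard error 0.15, 95% interval 1.37 to 2.00, edgeR adjusted p = 4.35e-07).

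Jun, the founding Jun protein and the main substrate of JNK in its family, lies on chromosome 4 (95049034 to 95052222, minus strand, 1 exon). Its levels were 421, 475 and 682 CPM in GSK-J4 and 673, 694 and 847 CPM in LPS + GSK-J4, from 1783, 2115, 1860, 1725, 1819 and 2052 counts. The groups overlapped, since GSK-J4 replicate 3 lay above LPS + GSK-J4 replicate 1. The log2-fold change of Jun was 0.49 (standard error 0.16, 95% interval 0.16 to 0.82, edgeR adjusted p = 0.0304), and it turned to -0.043 (adjusted p = 0.820) with total counts. Jun passed the p criterion, at 0.72 (adjusted p = 0.000958), without GSK-J4 replicate 3, and likewise without replicate 3 of both groups (0.62, adjusted p = 2.99e-06), but not the fold threshold. Jund, the Jun protein usually found in resting cells, lies on chromosome 8 (70698949 to 70700616, plus strand, 1 exon). It was at 45.1, 39.7 and 77.7 CPM in GSK-J4 and at 88.2, 92.0 and 133 CPM in LPS + GSK-J4, from 191, 177, 212, 226, 241 and 321 counts. The groups were apart, although GSK-J4 replicate 3 came closer to LPS + GSK-J4 than to its own group's lower libraries. Jund was higher in LPS + GSK-J4 by a log2-fold change of 0.97 (standard error 0.22, 95% interval 0.50 to 1.44, edgeR adjusted p = 0.00430), below the fold threshold, and by 0.43 (adjusted p = 0.0649) with total counts. Its adjusted p also missed 0.01 without GSK-J4 replicate 1 (0.0235) or 2 (0.0271) and without LPS + GSK-J4 replicate 2 (0.0134) or 3 (0.050).

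**Figure D2:**
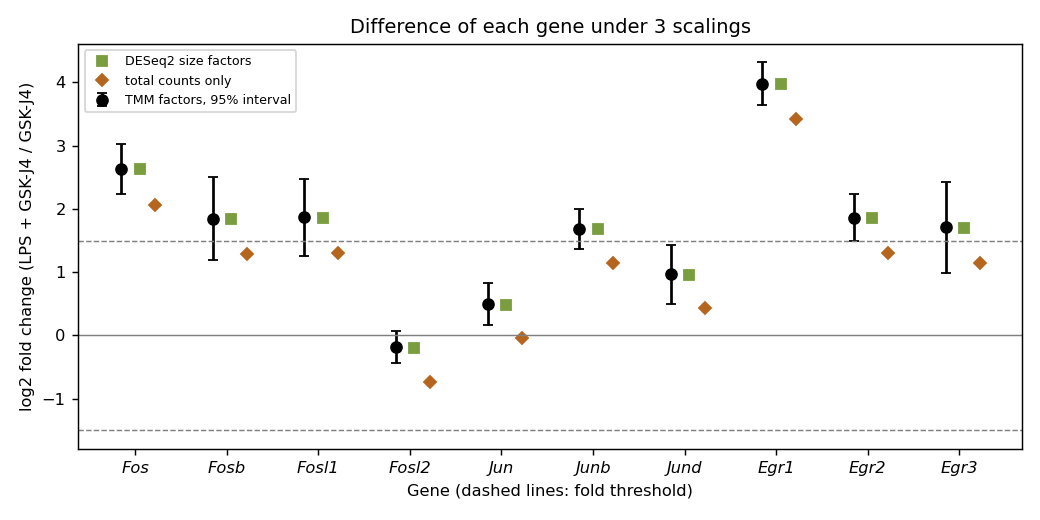
Log2-fold change of LPS + GSK-J4 over GSK-J4 for each of the 10 genes under 3 scalings: TMM (black, with 95% intervals from the edgeR fit), DESeq2 size factors in edgeR (squares) and total counts (diamonds), with dashed lines at the threshold of 1.5 in either direction. Under TMM, Egr1 at 3.98 stands highest, 6 others lie between 1.69 and 2.64, and Jund, Jun and Fosl2 lie below the threshold, while total counts place every gene lower and Jun at -0.043.

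Promoter sequence is given for 3 up-regulated AP-1 genes, Fos, Fosb and Junb, and for Jun, which did not pass the test, so that windows of genes with different responses can be read side by side. RefSeq windows (GRCm38.p6) were examined for 7 of the 10 members (Fos, Fosb, Fosl2, Jun, Junb, Jund and Egr2). Promoters of the remaining members were not examined, so nothing is said here of their motifs. The 250 bases before the annotated start are printed 5′ to 3′ on the strand of the gene. The windows are chr12:85473640-85473889 for Fos (plus strand), chr7:19310046-19310295 for Fosb (minus strand), chr8:84978749-84978998 for Junb (minus strand) and chr4:95052223-95052472 for Jun (minus strand). Capitals mark matches on either strand to TGACG (the core of the CREB site TGACGTCA), to the Egr site GCGNGGGCG or to the kappaB site.
Fos: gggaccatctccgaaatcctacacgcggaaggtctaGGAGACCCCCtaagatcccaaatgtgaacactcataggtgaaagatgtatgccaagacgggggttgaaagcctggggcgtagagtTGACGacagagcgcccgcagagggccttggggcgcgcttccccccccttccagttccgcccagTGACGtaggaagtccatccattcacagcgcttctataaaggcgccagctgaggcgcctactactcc
Fosb: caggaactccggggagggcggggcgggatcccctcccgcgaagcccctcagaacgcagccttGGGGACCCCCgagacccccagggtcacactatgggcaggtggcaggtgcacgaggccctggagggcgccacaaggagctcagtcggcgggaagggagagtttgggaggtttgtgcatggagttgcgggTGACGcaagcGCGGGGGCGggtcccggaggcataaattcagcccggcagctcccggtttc
Junb: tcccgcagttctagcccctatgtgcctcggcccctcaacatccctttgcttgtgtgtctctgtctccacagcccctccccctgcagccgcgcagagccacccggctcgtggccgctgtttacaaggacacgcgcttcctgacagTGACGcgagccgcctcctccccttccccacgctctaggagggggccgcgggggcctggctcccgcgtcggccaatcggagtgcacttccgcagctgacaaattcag
Jun: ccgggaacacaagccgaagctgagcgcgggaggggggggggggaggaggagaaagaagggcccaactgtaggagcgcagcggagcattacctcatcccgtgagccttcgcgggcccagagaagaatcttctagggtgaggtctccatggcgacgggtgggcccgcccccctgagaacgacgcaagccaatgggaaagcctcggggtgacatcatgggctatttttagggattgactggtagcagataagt
Counting the last base before the start as -1, TGACG began at -129 and -66 in Fos, at -60 in Fosb and at -106 in Junb, the Egr site began at -50 in Fosb, and the kappaB site began at -214 in Fos and -188 in Fosb. The Jun window held no exact match to any motif searched. It did hold tgacatca, which differs from the CREB site TGACGTCA only by a in place of g and was not counted. At Egr2, 3 of its 5 windows held TGACG and 4 held a CArG box, the site of the serum response factor, and the first held overlapping kappaB matches, with the windows of neighbouring starts overlapping. The Fosl2 window held an Egr site and overlapping kappaB matches, and the Jund window, which belongs to a RefSeq start upstream of the position given above, held none. No window of these 7 genes held the whole CREB site or the AP-1 site TGANTCA. Among all 32817 promoter windows of the same length, 17.7% held TGACG, 1.55% the whole CREB site, 6.75% the AP-1 site, 1.47% a CArG box, 4.70% the Egr site and 7.25% the kappaB site. A match describes the letters of these windows and not binding in PM.

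To compare members with each other, CPM was divided by the length of the gene's longest coding transcript linked to RefSeq (CPM per kb). In GSK-J4 the highest were Jun at 165 ± 43.3 and Junb at 156 ± 31.0 CPM per kb (SD, n = 3), whose ranges overlapped. Jund (32.5 ± 12.3) and Fosl2 (29.6 ± 2.15) followed, also with overlapping ranges, and then Egr1 at 16.2 ± 2.93. Egr2 (4.88 ± 0.0928), Fos (4.85 ± 0.922) and Fosl1 (4.00 ± 0.715) could not be ordered by their ranges. Fosb (1.05 ± 0.356) and Egr3 (0.798 ± 0.125) were lowest and overlapped. In LPS + GSK-J4 the order changed at the top, with Junb at 502 ± 79.3 above Egr1 at 253 ± 39.7 and Jun at 231 ± 29.8 CPM per kb. The ranges of Egr1 and Jun overlapped. Jund was at 62.5 ± 14.7, Fos (30.1 ± 2.31) overlapped with Fosl2 (26.1 ± 2.41), Egr2 (17.8 ± 2.13) with Fosl1 (14.5 ± 6.12), and Fosb (3.67 ± 0.813) with Egr3 (2.59 ± 0.931). Egr1 thus lay below Fosl2 in GSK-J4 and above Jund in LPS + GSK-J4, with no overlap of ranges in either case.

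The composition of each family is independent of the scaling between libraries, since each member is set against the others of the same library. Of the summed CPM per kb of the Fos family, Fosl2 made up 75.1% ± 1.98 in GSK-J4 against 35.3% ± 1.82 in LPS + GSK-J4 (SD, n = 3). The share of Fos was 12.2% ± 1.51 against 40.8% ± 3.75, that of Fosl1 10.1% ± 0.849 against 19.0% ± 5.19 and that of Fosb 2.65% ± 0.730 against 4.90% ± 0.363. By this measure the Fos family went from a composition led by Fosl2 in every GSK-J4 library to one led by Fos in every LPS + GSK-J4 library. The lead of Fos depends on the transcript lengths chosen, 2.11 kb for Fos and 6.54 kb for Fosl2. It was smallest in LPS + GSK-J4 replicate 3, at 36.8% against 33.2%. In the Jun family, Jun made up 46.5% ± 2.28 against 29.2% ± 0.837, Junb 44.5% ± 2.37 against 63.1% ± 0.587, and Jund 9.0% ± 1.29 against 7.79% ± 0.610. The shares of Jun and Junb did not overlap between the groups, and those of Jund did. In the Egr family, Egr1 made up 73.8% ± 3.19 against 92.6% ± 0.246, Egr2 22.6% ± 3.22 against 6.52% ± 0.403 and Egr3 3.64% ± 0.0852 against 0.930% ± 0.187. Egr2 and Egr3 therefore held smaller shares of the family in LPS + GSK-J4 although both rose in level.

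**Figure D3:**
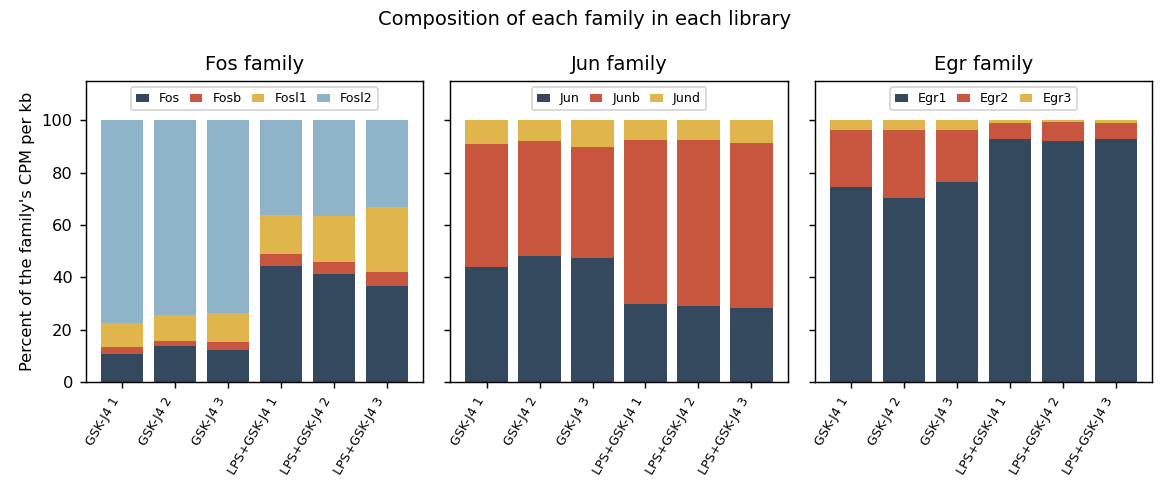
Share of each member in the summed CPM per kb of its family (percent, stacked bars from 0 to 100), 1 bar per library. Fosl2 falls from 75.1% to 35.3% of the Fos family, Junb goes from 44.5% to 63.1% of the Jun family and Egr1 from 73.8% to 92.6% of the Egr family (group means).

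Count ratios within a library, chosen after the values were seen, compare members without scaling or transcript length. The Junb/Jun ratio was 0.609, 0.517 and 0.510 in the GSK-J4 libraries and 1.18, 1.24 and 1.26 in the LPS + GSK-J4 libraries, 2.25-fold higher in the mean. Junb had fewer counts than Jun in each GSK-J4 library and more in each LPS + GSK-J4 library. The Fos/Fosl2 ratio was 0.0449, 0.0597 and 0.0532 against 0.393, 0.367 and 0.357, 7.08-fold higher, so that by counts, which favour the longer Fosl2 transcript, Fosl2 still exceeded Fos in every library. The Egr1/Egr2 ratio was 3.50, 2.75 and 3.95 against 14.7, 13.6 and 15.4, 4.29-fold higher. All 3 ratios parted the groups completely, and each 2-sided exact permutation test gave p = 0.1 (0.1 after Benjamini-Hochberg adjustment over the 3 ratios), the smallest value this design allows.

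Replicate 3 had the highest CPM of its group for 9 of the 10 members in GSK-J4, the exception being Fos, and for all 10 in LPS + GSK-J4. With total counts in place of TMM these were 4 and 10 of the 10. The largest deviations from a group mean on the log2 scale were 0.65 for Fosl1 and 0.56 for Egr3 in LPS + GSK-J4 replicate 3, 0.58 for Jund in GSK-J4 replicate 3 and 0.52 for Fosb in the same library. Without replicate 3 of both groups, an alternative chosen after the data were seen, 6 members were up-regulated. Egr3, at a log2-fold change of 1.49, then fell just short of the threshold. Replicate 3 also departed from its group over all genes tested. Chi-square per degree of freedom was 13.4 and 13.7 between GSK-J4 replicate 3 and replicates 1 and 2, and 2.21 between replicates 1 and 2. In LPS + GSK-J4 these values were 6.25 and 6.33, and 2.44. Rn45s, among these genes, held 32.4% of counts in GSK-J4 replicate 3 and 22.2% and 22.3% in replicates 1 and 2. The share of all genes highest in replicate 3 was not counted.

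The genes around these factors were read from 5 lists. Of the kinases and nuclear effectors that lead from TLR4 to Fos and Egr1 (29 genes, 27 tested), 0 were up-regulated and 0 down-regulated by edgeR and by DESeq2. At an unadjusted p under 0.05 in edgeR, 5 of the 27 were higher and 5 lower, near the shares of 19.3% and 15.5% over all genes, and the median log2-fold change was 0.04. The widest changes were in Map3k8, which encodes the kinase TPL2 that feeds the ERK pathway, at 17.2 ± 3.03 against 38.1 ± 4.19 CPM (1.17, edgeR adjusted p = 0.000268), and in Mef2d, a MADS box factor, at 126 ± 23.8 against 69.9 ± 21.8 CPM (-0.85, adjusted p = 0.00354). Both passed the p criterion and not the fold threshold. The serum response factor gene Srf itself had a log2-fold change of 0.55 (adjusted p = 0.171).

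Of the dimer partners and co-regulators (15 genes, 11 tested), 1 was up-regulated and 0 were down-regulated, also by DESeq2. At an unadjusted p under 0.05, 2 were higher and 2 lower, and the median log2-fold change was -0.14. With total counts 0 were up-regulated and 1, Mafk, was down-regulated. Maff, a small Maf protein without a transactivation domain, rose from 68.2 ± 4.15 to 202 ± 9.22 CPM (SD, n = 3), by a log2-fold change of 1.57 (standard error 0.12, edgeR adjusted p = 9.61e-08). Its relative Mafk was at 82.0 ± 17.2 against 39.5 ± 3.81 CPM (-1.04, adjusted p = 0.000259), so these small Maf genes differed in direction. Atf3, which pairs with Jun and is often induced by LPS, was high in both groups at 867 ± 23.3 against 1013 ± 36.9 CPM (0.23, adjusted p = 0.114). Nab2, which encodes a repressor that binds Egr1, was at 48.6 ± 4.41 against 42.4 ± 11.9 CPM (-0.20, adjusted p = 0.490). Srf, Atf3 and Nab2 were singled out after their values were seen.

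Among other immediate-early genes (23 genes, all tested), 9 were up-regulated and 1 was down-regulated, and a further 8 were higher at an adjusted p below 0.01 without reaching the fold threshold. By DESeq2, 8 were up-regulated and 1 was down-regulated. At an unadjusted p under 0.05 in edgeR, 19 were higher and 1 lower, and the median log2-fold change was 1.30. Csrnp1, which encodes a cysteine- and serine-rich nuclear protein, rose most, from 45.7 ± 9.61 to 459 ± 56.2 CPM (3.34, edgeR adjusted p = 2.22e-10). Ier2 rose from 17.7 ± 0.699 to 159 ± 12.4 CPM (3.17, adjusted p = 1.13e-10). Arc, known from synapses, rose from 1.82 ± 0.601 to 11.2 ± 2.53 CPM (2.64, adjusted p = 5.80e-05), and the nuclear receptor gene Nr4a1 from 26.1 ± 7.01 to 153 ± 27.1 CPM (2.58, adjusted p = 3.94e-08). By log2-fold change Csrnp1 and Ier2 lay between Fos and Egr1. Arc (standard error 0.36) and Nr4a1 (standard error 0.18) were too close to Fos to be ordered against it. Arc had only 9, 5 and 6 counts in the GSK-J4 libraries. Sik1, which encodes a salt-inducible kinase that restrains CREB coactivators, fell from 82.1 ± 7.33 to 13.8 ± 0.201 CPM (-2.56, adjusted p = 9.39e-09), the opposite direction to the other 22 genes of the list, not all of which passed the test. With total counts 4 of the 23 were up-regulated. Without a filter on low counts 7 were, and leaving out 1 library at a time gave 7 to 10.

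Of 20 genes often described as AP-1 targets, 5 were up-regulated and 0 down-regulated, the same numbers as by DESeq2. At an unadjusted p under 0.05, 16 were higher and 3 lower, and the median log2-fold change was 1.21. The matrix protease gene Mmp10 rose from 4.14 ± 0.423 to 23.6 ± 9.07 CPM (2.48, edgeR adjusted p = 2.45e-05) and the collagenase gene Mmp13 from 40.9 ± 12 to 160 ± 15.7 CPM (1.95, adjusted p = 6.38e-07). Ptgs2, which encodes cyclooxygenase-2, rose from 147 ± 23.0 to 504 ± 58.5 CPM (1.77, adjusted p = 8.46e-08), and Il1rl1, the IL-33 receptor gene, from 9.29 ± 0.708 to 29.9 ± 8.34 CPM (1.68, adjusted p = 5.96e-05). The list's number of up-regulated genes was 8 without GSK-J4 replicate 1 and also 8 without LPS + GSK-J4 replicate 1, and 1 with total counts.

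Of 12 genes often described as Egr targets, 3 were up-regulated and 0 down-regulated, where DESeq2 called 4 and 0. At an unadjusted p under 0.05, 7 were higher and 0 lower, and the median log2-fold change was 1.03. The adhesion molecule gene Icam1 rose from 66.2 ± 21.7 to 272 ± 59.2 CPM (2.03, edgeR adjusted p = 2.21e-06), the stress response gene Gadd45b from 29.4 ± 6.18 to 111 ± 10.8 CPM (1.91, adjusted p = 3.04e-07) and Cdk5r1, which encodes an activator of the kinase CDK5, from 3.73 ± 0.336 to 11.7 ± 2.53 CPM (1.65, adjusted p = 0.000613). The tissue factor gene F3, singled out after its value was seen, was at 1.49, just under the fold threshold (adjusted p = 1.04e-06). With total counts 0 of the 12 were up-regulated. Gadd45b and Ier3 also stand among the immediate-early genes, Nab2 among the co-regulators, and Dcn and Lum of the AP-1 targets among the fibroblast markers, whose sums are given above.

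**Figure D4:**
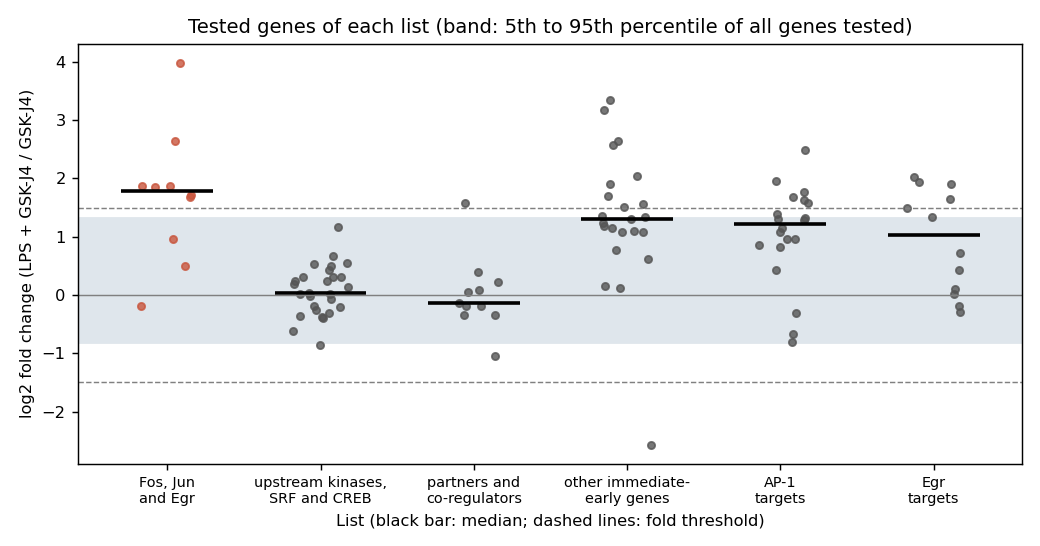
Log2-fold change of LPS + GSK-J4 over GSK-J4 for each tested gene of the members and of the 5 lists, each point 1 gene and each black bar the median of its list. The grey band spans the 5th to 95th percentile of all genes (-0.82 to 1.31), whose median was -0.00064, and dashed lines mark the fold threshold. The medians are 1.78 for the 10 members, 0.04 for kinases and nuclear effectors, -0.14 for partners, 1.30 for other immediate-early genes, 1.21 for AP-1 targets and 1.03 for Egr targets.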

How the data were processed

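RNA of 6 PM samples was depleted of ribosomal RNA and sequenced from both ends on a directional library. CASAVA 1.8.2, Trimmomatic 0.33, STAR 2.5.1, DESeq2 and the build mm10 are named in the submitters' processing notes. The authors deposited STAR's raw counts of fragments per gene, without normalization, in unstranded, same-strand and reverse-strand columns. The reverse-strand counts, which the kit calls for, were used, and the 4 tally lines of each table and 0 other columns were left out. STAR counts fragments that map to 1 place and overlap 1 gene, so overlapping genes lose fragments. The annotation used for counting is not given in the sources used here, and the mice were ICR whereas mm10 is C57BL/6J.

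Groups were taken from the titles. The study's methods describe the samples as independent, but the labels do not tie them to separate mice, so p-values measure the spread between these samples. Counts were tested with edgeR 4.0.16 under limma 3.58.1 and R 4.3.3, using TMM, filterByExpr (minimum count 10, minimum total 15) and the robust quasi-likelihood test without covariates, with Benjamini-Hochberg adjustment over 10133 genes. The study's thresholds were used, an adjusted p no larger than 0.01 and a log2-fold change of 1.5 or more in either direction. Standard errors are the log2-fold change divided by the root of F, and 95% intervals use the moderated degrees of freedom. The floor of 3 counts covers counting error only. The model was tested on simulated data.

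The members, lists and tests were chosen with earlier results of these data known. Named genes are the 10 members, from each list up to 4 called genes with the largest absolute log2-fold change in each direction (the 2 largest where fewer than 2 were called), and the 3 genes closest to Fos and to Junb by Pearson correlation of log2 CPM. Positions and transcript lengths were read from GENCODE for mm10. The alternatives were DESeq2 1.42.0, its size factors in edgeR, unstranded counts, other filters and thresholds, removal of Rn45s, Mir6236 and Lars2, a block for the replicate number and the omission of each library. Total counts, and the omission of replicate 3 of both groups, were added after seeing the data. Figures were drawn in Python 3.11.15 with pandas 2.3.3, numpy 2.4.6 and matplotlib 3.10.9.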

Additional observations from a re-analysis of the deposited data

Results flagged for a closer look

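The same-strand column, which the comparisons do not use, held antisense fragments at Egr1. There were 0, 0 and 1 in the GSK-J4 libraries and 9, 14 and 10 in the LPS + GSK-J4 libraries, a signal above the GSK-J4 level in data outside the main measurement, with the highest value, 14, in LPS + GSK-J4 replicate 2. Set against all fragments at the gene, this was 1 of 548 (0.182%, 95% Clopper-Pearson interval 0.00462 to 1.01%) in GSK-J4 and 33 of 5863 (0.563%, 0.388 to 0.790%) in LPS + GSK-J4. These intervals overlap and cover counting error only, and both shares were below the 1.23% and 1.03% that antisense fragments made up over all genes in the same groups.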

How the results depend on the processing

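The 10 log2-fold changes were recomputed under 16 alternatives, which gave 150 values with the same direction and call, 8 with the same direction that fell short of the threshold and 1 reversal. Fosl1 could not be tested with unstranded counts, where 6 of the other 9 members were up-regulated. The reversal was Jun, at -0.043 with total counts. That setting also left 2 members up-regulated in place of 7, and gave 124 up-regulated and 354 down-regulated genes over all genes in place of 299 and 82, so that 25.9% of calls were up-regulated in place of 78.5%. A minimum of 10 counts in every sample gave 176 up-regulated genes, with fewer genes tested, and thresholds of 0.05 for the adjusted p and 1 for the log2-fold change gave 844 and 285. Leaving out 1 library at a time gave 5 to 7 up-regulated members (5 without LPS + GSK-J4 replicate 3), 271 to 374 up-regulated genes and 79 to 100 down-regulated genes. Without Rn45s, Mir6236 and Lars2, 7 members were up-regulated and 0 down-regulated, with 302 and 83 genes over all. Over all alternatives Egr1 ranged from 3.42 to 4.10, Fos from 2.07 to 2.76 and Junb from 1.14 to 1.85. The replicate numbers were not taken as a pairing, since deviations from the group means had r = -0.01, 0.12 and 0.30 between libraries of the same number and only those of replicate 3 correlated best with each other. With the replicate number as a block, 7 members were up-regulated, with 306 and 90 genes over all, and Jun was at 0.51 (adjusted p = 4.38e-06), as it also passed the p criterion with no filter on low counts (adjusted p = 0.00278). The depth limits Fosb and Egr3 most, which had between 10 and 42 counts per library.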

Other observations

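The genes whose levels ran closest to Fos over the 6 libraries, by Pearson's r of log2 CPM, were Pgm3 (r = 0.999), an enzyme of UDP-N-acetylglucosamine synthesis, Psat1 (r = 0.998), an enzyme of serine synthesis, and the ubiquitin-like interferon response gene Isg15 (r = 0.997). Their own log2-fold changes were 0.56, 0.43 and 5.90, so a like pattern over libraries went with changes of very different size. Those closest to Junb were Nr4a1, the autophagy receptor gene Sqstm1 and the urokinase receptor gene Plaur, each at r = 0.997, with log2-fold changes of 2.58, 0.91 and 1.33. The libraries form 2 groups of 3, so these values mostly describe the difference between the groups and are given without a test.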
